A study of Homo sapiens with 2 samples.

Results

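The human leukocyte antigen (HLA) genes and the genes that process and load peptides onto HLA molecules were examined in C4-2B ENZR cells with and without a hairpin against NRP2. Members were every symbol that starts with HLA- in both deposited tables, plus B2M, TAP1, TAP2, TAPBP, TAPBPL, PSMB8, PSMB9, PSMB10, PSME1, PSME2, NLRC5, CIITA, CD74, ERAP1, ERAP2 and CANX. This gave 41 of the 26475 listed symbols, 25 of them HLA symbols and 16 others. C4-2B ENZR is an established human prostate cancer line, of the LNCaP lineage, resistant to the antiandrogen enzalutamide, and both cultures grew with 20 µM of it. The control cells, labelled shControl with genotype WT, carried a non-targeting short hairpin RNA. The other cells, labelled shNRP2 with genotype NRP2 knockdown, carried a lentiviral hairpin to the NRP2 coding region, and both were selected with an antibiotic. Each group was 1 RNA sequencing library of total RNA, so no spread between replicates exists and no p-value between the conditions is given. The comparison asks which genes differ when NRP2, a co-receptor for semaphorins and VEGF ligands, is targeted in drug-resistant cells.

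MHC class I molecules are built from a heavy chain and beta-2-microglobulin and show peptides from inside the cell to CD8+ T cells. Their peptides are cut by the proteasome, in which interferon-gamma can swap in immunoproteasome subunits, pumped into the endoplasmic reticulum by TAP, trimmed by ERAP aminopeptidases and loaded with the help of tapasin. MHC class II molecules pair an alpha with a beta chain, travel with the invariant chain CD74, exchange peptide with the help of HLA-DM and are mainly made by professional antigen-presenting cells. NLRC5 and CIITA are the transactivators of class I and class II promoters, and loss of class I presentation is a known feature of prostate cancer.

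The control library held 21052178 reads on the listed symbols and the knockdown library 22992304. The 41 members took 0.150% and 0.189% of these reads. Values are TMM-scaled counts per 1000000 reads (CPM), in which 1 read is worth 0.0487 CPM (control) and 0.0472 CPM (knockdown). Ratios are knockdown CPM over control CPM, followed in brackets by an exact conditional binomial 95% interval from the read counts. Such intervals hold counting error alone, because each group has 1 library. The reads carry no molecular identifiers and need not be separate molecules, so even counting error may be understated. NRP2 itself was low in both, with 20 reads (control) and 7 reads (knockdown), 2.95-fold lower (1.20 to 8.26). All 13 prostate luminal markers had reads in both libraries. By CPM 9 of them were higher and 4 lower in the knockdown library. Of the 9, 3 (TMPRSS2, KLK2 and KLK3) were over 1.5-fold higher. The 4 lower ones were FOXA1 at 453 and 302 CPM, STEAP2 at 269 and 213, FOLH1 at 1187 and 1053, and HOXB13 at 511 and 486. FOXA1 was thus close to 1.5-fold lower. Shares of all compared genes past 1.5-fold in each direction are given below.

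Most members stood higher in the knockdown library, and none stood at least 1.5-fold lower. A gene was compared where its mean over both libraries was at least 1 CPM, and its difference was expressed as the log2 of (knockdown CPM + 1) over (control CPM + 1), a scale that understates the change of low genes. Of the 41 members, 29 were compared and 12 lay below that mean. On this scale 10 members stood 1.5-fold or more above the control and 0 stood below it by that much, where 5.78% of all 13316 compared genes were that much higher and 3.57% that much lower. Among the 10 were HLA-B, HLA-E, HLA-DMB, HLA-DPA1, HLA-DPB1, HLA-DQB1, CD74, PSMB8 and PSMB9. None of the 29 reached 2-fold on this scale, which 1.46% of compared genes did upward and 0.526% downward. An exact binomial test on the recovered reads, which compares these 2 libraries and not the conditions, put 20 members higher and 0 lower at a Benjamini-Hochberg adjusted p under 0.05, where it put 30.2% of compared genes higher and 22.0% lower, 52.2% in all. The log2 change lay above 0 for 27 members and below 0 for 2, where 54.1% of compared genes lay above 0, and the median was 0.45 against 0.03 over all compared genes. HLA-DRB1 was compared only because of its knockdown value, so counts and medians over compared members describe them and do not support the difference. More RNA per cell and more cells that carry the RNA cannot be told apart in such bulk libraries.

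**Figure D1:**
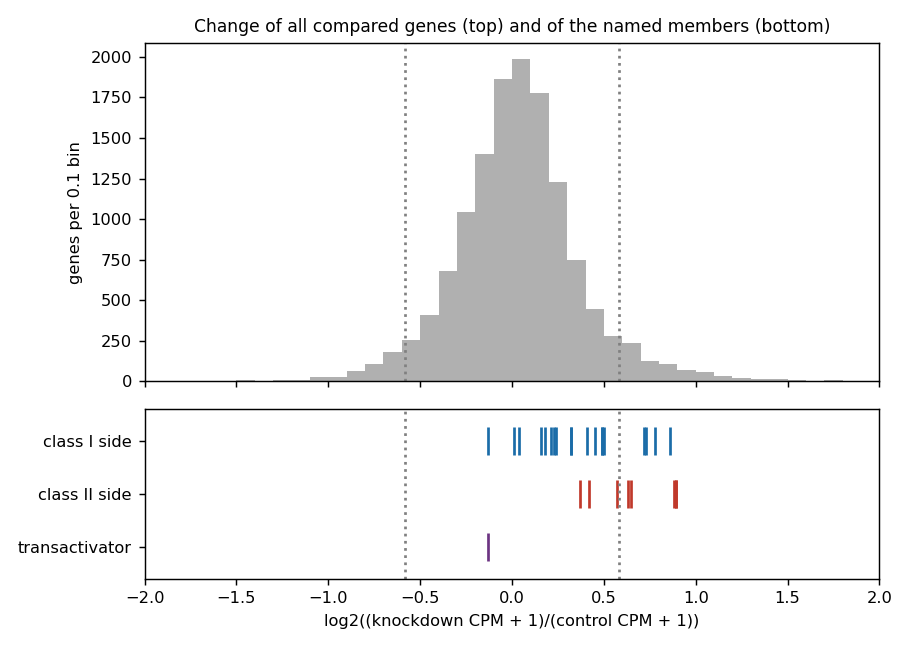
Upper panel: number of compared genes (vertical axis) by log2((knockdown CPM + 1)/(control CPM + 1)) in bins of width 0.1. Lower panel: 1 tick for each compared member named in the text, split into the class I side, the class II side and the transactivator NLRC5; dotted lines mark 1.5-fold, and the axis is limited to 2 on either side, which leaves out 25 of the compared genes and no member. The class II ticks lie from 0.37 to 0.89, the class I ticks spread from -0.13 to 0.86, and NLRC5 is at -0.13.

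Among the class I heavy chains, HLA-B and HLA-C encode classical molecules, which present most peptides to T cells. HLA-C was at 185 CPM (control) and 259 CPM (knockdown), a ratio of 1.40 (1.35 to 1.46). HLA-B was at 69.6 and 127 CPM, 1.83 (1.72 to 1.95). HLA-B thus had a higher ratio than HLA-C, with intervals that do not overlap, and HLA-B reads were 37.6% (control) and 49.1% (knockdown) of HLA-C reads, 1.31 times as high (1.21 to 1.41). As a share of class I reads HLA-C went from 41.5% to 37.0% and HLA-B from 15.6% to 18.2%.

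The non-classical class I genes followed the same direction. HLA-E, whose product shows leader peptides of other class I chains to natural killer cell receptors, was at 45.5 and 79.0 CPM, 1.73 (1.60 to 1.88). HLA-F was at 7.06 and 10.0 CPM, 1.42 (1.14 to 1.76). HLA-G, best known from the placenta, had 0 reads in both libraries, which allows up to 0.146 CPM (control) and 0.141 CPM (knockdown). So 5 of the 6 class I genes had reads, and all 5 were higher in the knockdown library with a counting interval above 1. Of these, 3 passed 1.5-fold, which 5.78% of all compared genes did upward.

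Because HLA copies can share reads, the class I genes were also summed. Their sum was at 445 CPM (control) and 700 CPM (knockdown), from 9149 and 14851 reads, a ratio of 1.57 (1.53 to 1.61). HLA-E, HLA-F and HLA-G together gave 1.69 (1.57 to 1.82). The class I ratio was therefore present whether single genes or sums were read. In the transcripts of GENCODE release 29, 2.72% of the 50-base stretches of HLA-B also occur in another HLA gene. That share was, for HLA-C, 5.38% and for HLA-E 3.94%. These shares come from the reference alleles and from all transcripts of each gene, so shares over coding transcripts alone may differ. The alleles of C4-2B ENZR, its read length and the mismatches that the alignment allowed were not analysed here.

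The class I pseudogenes and the antisense transcript were low. HLA-L was at 1.31 and 2.08 CPM (27 and 44 reads) and HLA-F-AS1 at 1.46 and 1.75 CPM, both with counting intervals that included a ratio of 1. HLA-H had 2 and 6 reads and HLA-J 1 in each library. In GENCODE 33.5% of the exon bases of HLA-L lie opposite exons of HCG18, which was at 30.0 and 21.2 CPM, and no source used here gives the strand setting, so the value of HLA-L is uncertain.

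B2M encodes the light chain that every class I heavy chain needs to reach the cell surface. It was at 247 CPM (control) and 347 CPM (knockdown), 1.41 (1.36 to 1.46), higher but under 1.5-fold. Within a library, the ratio of class I heavy chain reads to B2M reads does not depend on scaling. It was 1.81 in the control and 2.02 in the knockdown library, 1.12 times as high (1.07 to 1.17). The heavy chains together thus differed more between these libraries than the light chain did, beyond counting error. This was not so for each heavy chain. HLA-C, at 1.40 (1.35 to 1.46), and HLA-F, at 1.42, were close to B2M, while HLA-B was at 1.83 and HLA-E at 1.73.

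The promoters of these genes are shown because class I genes and B2M are known to share a set of short elements near their starts. RefSeq sequences (GRCh38.p14, a later build than the hg19 of the expression tables) were matched by symbol for 31 of the 41 members, with 42 starts in all. CIITA, HLA-DPB2, HLA-DRA, HLA-DRB6, HLA-E, HLA-H, HLA-J, HLA-L and NLRC5 were among those not matched. The 250 bases before each start were searched on both strands, in 4 motifs chosen after the sequences had been seen. They were CCAAT, the core of the Y box; CNGATGANG, a class II X box-like motif; GAAA, any 2 bases and GAAA again, like the interferon-stimulated response element (ISRE-like); and GGG, any 2 bases, TT, any base and CC, like a site for NF-kB (kappa B-like). Matches are printed in capitals, 5′ to 3′, and overlapping matches run together.
HLA-B (chr6:31357180-31357429, - strand): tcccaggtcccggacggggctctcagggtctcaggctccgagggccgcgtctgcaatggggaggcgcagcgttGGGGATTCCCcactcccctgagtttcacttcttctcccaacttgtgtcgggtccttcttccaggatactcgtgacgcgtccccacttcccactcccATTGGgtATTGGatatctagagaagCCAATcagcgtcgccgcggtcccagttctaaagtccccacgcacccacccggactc
HLA-C (chr6:31272093-31272342, - strand): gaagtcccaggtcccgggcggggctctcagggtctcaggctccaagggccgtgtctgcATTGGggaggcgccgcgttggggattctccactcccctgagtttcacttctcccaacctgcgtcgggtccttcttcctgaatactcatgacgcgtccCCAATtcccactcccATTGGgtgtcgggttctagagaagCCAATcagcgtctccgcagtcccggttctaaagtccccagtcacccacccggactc
B2M (chr15:44711267-44711516, + strand): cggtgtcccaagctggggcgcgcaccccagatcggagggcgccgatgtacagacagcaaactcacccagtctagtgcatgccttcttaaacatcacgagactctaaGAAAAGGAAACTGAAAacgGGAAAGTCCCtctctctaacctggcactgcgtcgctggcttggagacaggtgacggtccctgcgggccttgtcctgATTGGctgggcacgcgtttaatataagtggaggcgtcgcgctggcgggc
HLA-B holds 3 CCAAT matches, 56, 74 and 81 bases before the start, and a kappa B-like match 177 bases before it. HLA-C holds 4 CCAAT matches, with no kappa B-like match, and B2M holds 1 CCAAT match, 2 overlapping ISRE-like matches and 1 kappa B-like match. CCAAT occurs in 4 of the 6 class I windows and in 32.0% of all 35116 RefSeq windows of this length, so it is a common motif. The kappa B-like motif occurs in 5.07% of all windows. A match describes letters only, and binding of a factor was not measured. Elements that depart from these exact patterns, or lie outside the 250 bases, were not searched. A window without a match may therefore still hold such an element.

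Class II genes too stood higher in the knockdown library. Per kilobase of transcript, the highest class II gene in the control, HLA-DQB1 at 3.51 CPM per kilobase, lay below the lowest class I gene with reads, HLA-F at 4.32, while in the knockdown library HLA-DMB and HLA-DQB1, at 7.02 and 6.99, lay above HLA-F at 6.12. Summed over the 15 class II symbols they were at 23.1 CPM (control) and 42.4 CPM (knockdown), from 474 and 900 reads, 1.84 (1.64 to 2.06). Class II genes took 4.90% (control) and 5.68% (knockdown) of all HLA reads. All 25 HLA symbols together were at 471 and 747 CPM, 1.58 (1.54 to 1.63).

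HLA-DM, the peptide exchange factor of class II, was covered by both of its chains. HLA-DMB was at 4.82 and 9.81 CPM, 2.04 (1.59 to 2.61), and its partner HLA-DMA was at 3.41 and 5.57 CPM, 1.63 (1.20 to 2.23). HLA-DMA missed 1.5-fold on the log2(CPM + 1) scale, at 0.57 against the threshold of 0.58, although its plain ratio passed it. HLA-DOA and HLA-DOB, the chains of a modulator of HLA-DM, had 1 and 0 reads and 2 and 1 reads. HLA-DM was thus present in both libraries, while the reads of HLA-DO were too few to compare.

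The peptide-presenting class II pairs differed in how evenly their 2 chains were read. HLA-DQB1, a beta chain, was at 6.09 and 12.1 CPM, 1.99 (1.60 to 2.49), and was the class II gene with the most reads, 125 and 257. Its alpha partner HLA-DQA1 had only 3 and 2 reads. HLA-DQA2 had 0 and 1 reads and HLA-DQB2 0 and 3. The DQ sum therefore rested almost wholly on the beta chain. The DP chains were more even. HLA-DPA1 was at 2.34 and 5.14 CPM, 2.20 (1.55 to 3.16), and HLA-DPB1 at 1.51 and 2.88 CPM, 1.91 (1.22 to 3.04). The pseudogene HLA-DPB2 had 0 reads in both.

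HLA-DR showed the lowest ratio of the class II pairs. HLA-DRA, the invariable alpha chain, was at 3.70 and 5.09 CPM, 1.38 (1.02 to 1.87). HLA-DRB1 was at 0.730 and 1.32 CPM, from 15 and 28 reads, 1.81 (0.933 to 3.64). The pseudogene HLA-DRB6 had 4 reads in each library and HLA-DRB5 had 0 in both. By isotype, the summed ratio was 1.43 (1.09 to 1.87) for DR, 1.87 (1.55 to 2.26) for DM, 1.99 (1.61 to 2.48) for DQ and 2.08 (1.59 to 2.76) for DP. These intervals overlap, and the isotypes were not compared with each other directly. In all, 7 of the 15 class II genes were compared, and 4 were at least 1.5-fold higher, where 5.78% of all compared genes were. The other 8 had between 0 and 4 reads in either library.

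CD74, the invariant chain that guides class II through the cell, was at 1.51 and 2.92 CPM, from 31 and 62 reads, 1.94 (1.24 to 3.09). Per CD74 read there were 15.3 (control) and 14.5 (knockdown) class II reads, a ratio of 0.949 (0.587 to 1.51). With so few CD74 reads, this interval spans a wide range on either side of no difference.

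Class I was set against class II by the reads within each library. Class II reads were 5.18% of class I reads (control) and 6.06% (knockdown), 1.17 times as high (1.04 to 1.31). On the log2(CPM + 1) scale the difference was 0.65 for the class I sum and 0.85 for the class II sum. The ratio of the class II sum was higher than that of the class I sum beyond counting error. Whether this exceeds the spread between cultures cannot be told with 1 library each. Gene by gene the classes overlapped. HLA-B at 1.83 and HLA-E at 1.73 were near the class II sum at 1.84, and the DR sum at 1.43 was near HLA-C at 1.40.

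The class II promoters below are shown because a class II X box followed by a Y box is the known arrangement through which CIITA acts.
HLA-DMA (chr6:32953098-32953347, - strand): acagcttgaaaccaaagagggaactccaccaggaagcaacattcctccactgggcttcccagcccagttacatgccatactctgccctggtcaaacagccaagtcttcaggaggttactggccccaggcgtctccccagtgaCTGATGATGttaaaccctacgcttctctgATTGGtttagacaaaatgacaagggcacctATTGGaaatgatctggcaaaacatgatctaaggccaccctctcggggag
HLA-DMB (chr6:32941029-32941278, - strand): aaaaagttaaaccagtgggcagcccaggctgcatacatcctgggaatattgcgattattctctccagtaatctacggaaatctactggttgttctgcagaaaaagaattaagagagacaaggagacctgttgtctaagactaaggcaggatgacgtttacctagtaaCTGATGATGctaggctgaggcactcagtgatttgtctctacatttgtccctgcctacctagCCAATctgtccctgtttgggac
HLA-DQB1 (chr6:32666658-32666907, - strand): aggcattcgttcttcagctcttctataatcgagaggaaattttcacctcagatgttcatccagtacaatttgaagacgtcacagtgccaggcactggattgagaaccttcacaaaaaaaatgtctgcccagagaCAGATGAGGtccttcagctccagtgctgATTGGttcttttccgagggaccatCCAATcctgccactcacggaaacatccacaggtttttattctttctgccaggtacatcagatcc
HLA-DMA holds the CNGATGANG match 108 bases before the start and CCAAT matches 79 and 49 bases before it. HLA-DMB holds them at 83 and 22 bases, and HLA-DQB1 at 116 bases with CCAAT matches at 88 and 64 bases. The matches of HLA-DMB lie further apart than the nearest pair of HLA-DMA or HLA-DQB1. No spacing was required in the search, so a pair of matches need not form the known arrangement. CNGATGANG occurs in 6 of the 13 class II windows, in 0 of the 6 class I windows and in 2.49% of all windows. CCAAT occurs in 11 of the 13 class II windows.

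RNA of the transactivators did not stand higher. NLRC5, which acts on class I, B2M, TAP1 and PSMB9 promoters, was at 9.64 CPM (control) and 8.73 CPM (knockdown), 0.905 (0.737 to 1.11). CIITA was at 1.02 and 0.849 CPM, from 21 and 18 reads, 0.830 (0.417 to 1.64), just under the mean of 1 CPM. In GENCODE 5.15% of the exon bases of CIITA lie opposite exons of DEXI, which was at 41.4 and 43.4 CPM. Another gene on the same strand, AC133065.3, covers 14.8% of them and was not among the listed symbols. With the strand setting unknown, the value of CIITA is uncertain. Both intervals include no difference, and the activity of the proteins was not measured. Of 8 listed genes for factors that bind class I and class II promoters, 0 passed 1.5-fold on the log2(CPM + 1) scale, which is near the background of 5.78% higher and 3.57% lower over all compared genes. RFX5, a subunit of the X box-binding complex, was at 88.7 and 118 CPM, and NFYA, of the complex that binds CCAAT, was at 50.9 and 34.4 CPM. CREB1 was at 67.0 and 54.1 CPM and NFYC at 56.4 and 50.5 CPM.

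**Figure D2:**
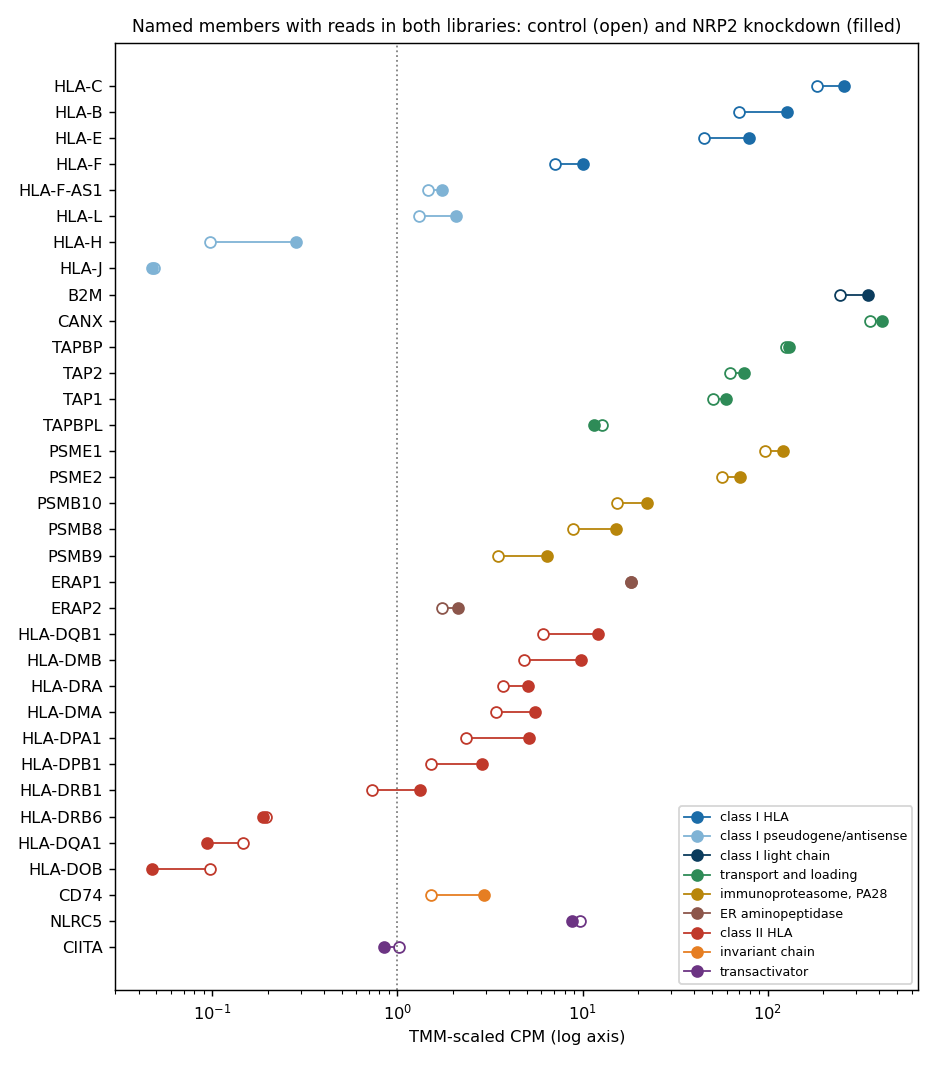
TMM-scaled CPM (horizontal, log axis) of the members named in the text that had reads in both libraries, grouped by role; open circles are the control library and filled circles the knockdown library, 1 library each, and the dotted line is 1 CPM. The 3 members with 0 reads in both libraries and the 3 with 0 in one are not drawn. Class I genes and B2M lie to the right of all class II genes apart from HLA-F, and the filled circle is to the right of the open one for every class I heavy chain gene drawn.

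The immunoproteasome subunits replace their constitutive counterparts and change which peptide ends the proteasome makes. PSMB9 was at 3.51 CPM (control) and 6.46 CPM (knockdown), 1.84 (1.38 to 2.49). PSMB8 was at 8.86 and 15.2 CPM, 1.71 (1.42 to 2.07), and PSMB10 at 15.4 and 22.2 CPM, 1.44 (1.25 to 1.67). All 3 were higher, and PSMB8 and PSMB9 passed 1.5-fold. Their constitutive counterparts were nearer to level: PSMB5 was at 181 and 218 CPM, PSMB6 at 164 and 166 CPM and PSMB7 at 109 and 123 CPM.

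Set against the subunit it replaces, each immunosubunit took a larger part in the knockdown library. PSMB9 reads were 2.14% (control) and 3.89% (knockdown) of PSMB6 reads, 1.81 times as high (1.35 to 2.46). PSMB8 reads were 4.90% and 6.97% of PSMB5 reads, 1.42 times as high (1.18 to 1.73). PSMB10 reads were 14.1% and 18.0% of PSMB7 reads, 1.27 times as high (1.09 to 1.49). Constitutive subunits thus still held most of the catalytic subunit reads in both libraries, and these ratios do not depend on how the libraries were scaled.

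The PA28 activator opens the proteasome and is formed by the products of PSME1 and PSME2. PSME1 was at 97.0 and 121 CPM and PSME2 at 56.8 and 71.0 CPM, both with a ratio of 1.25 and an interval above 1, under 1.5-fold. PSME3, which encodes a nuclear relative, was at 273 and 264 CPM, 0.968 (0.933 to 1.00). PSME1 and PSME2 reads together were 56.4% (control) and 72.9% (knockdown) of PSME3 reads, 1.29 times as high (1.22 to 1.37).

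The peptide transport and loading genes among the members were nearer to level than most HLA genes. TAP1, which with TAP2 forms the peptide pump, was at 50.7 and 59.5 CPM, 1.17 (1.08 to 1.28). TAP2 was at 62.6 and 74.3 CPM, 1.19 (1.10 to 1.28). TAPBP, the tapasin gene, was at 126 and 130 CPM, 1.03 (0.976 to 1.09), and its relative TAPBPL at 12.7 and 11.5 CPM, 0.909 (0.760 to 1.09). The value of TAPBPL is uncertain in the same way, with 4.68% of its exon bases opposite VAMP1, at 10.9 and 6.51 CPM. CANX, the general chaperone calnexin, was at 358 and 414 CPM, 1.15 (1.12 to 1.19). None of these 5 genes passed 1.5-fold, and the class I sum per TAP read was 1.33 times as high in the knockdown library (1.25 to 1.41). TAP1 reads were 80.9% and 80.1% of TAP2 reads, 0.989 times as high (0.885 to 1.11).

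TAP1 and PSMB9 lie head to head, with RefSeq starts 488 bases apart on opposite strands. PSMB9 reads were 6.92% (control) and 10.9% (knockdown) of TAP1 reads, 1.57 times as high (1.16 to 2.14), so the ratios of these neighbours differed beyond counting error. The TAP1 promoter is printed for this pair and the PSMB10 promoter as that of an immunosubunit encoded outside the HLA region.
TAP1 (chr6:32853705-32853954, - strand): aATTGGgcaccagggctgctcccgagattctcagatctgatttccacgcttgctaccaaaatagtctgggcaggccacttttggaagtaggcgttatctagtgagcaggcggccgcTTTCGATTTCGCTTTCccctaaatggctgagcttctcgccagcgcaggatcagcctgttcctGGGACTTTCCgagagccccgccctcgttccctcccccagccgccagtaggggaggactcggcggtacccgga
PSMB10 (chr16:67936851-67937100, - strand): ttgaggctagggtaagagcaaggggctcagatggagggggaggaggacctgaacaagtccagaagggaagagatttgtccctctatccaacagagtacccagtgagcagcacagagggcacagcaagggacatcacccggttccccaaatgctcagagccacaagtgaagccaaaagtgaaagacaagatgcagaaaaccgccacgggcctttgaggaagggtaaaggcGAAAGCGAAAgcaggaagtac
TAP1 holds 2 overlapping ISRE-like matches (as their reverse complement), 134 and 128 bases before the start, a kappa B-like match 72 bases before it and a CCAAT match 249 bases before it. PSMB10 holds 1 ISRE-like match, 21 bases before the start. The ISRE-like motif occurs in 8 of the 42 member windows (B2M, ERAP2, HLA-F, PSMB10, PSME2, TAP1, TAP2 and TAPBP) and in 3.02% of all windows. The 2 ISRE-like matches of TAP1 lie between the starts of TAP1 and PSMB9, but outside the window searched for PSMB9. Of the genes that hold the ISRE-like motif, PSMB10 had a ratio of 1.44, HLA-F 1.42, B2M 1.41 and PSME2 1.25. ERAP2 had 1.21, TAP2 1.19, TAP1 1.17 and TAPBP 1.03. Whether the motif goes with the ratios was not tested.

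The trimming enzymes did not differ beyond counting error. ERAP1 was at 18.2 and 18.3 CPM, 1.01 (0.870 to 1.16), and ERAP2 at 1.75 and 2.12 CPM, 1.21 (0.764 to 1.93). The interval of ERAP1 is narrow enough to leave out a change of 1.5-fold in these libraries, while that of ERAP2 is not. Opposite strand exons of CAST, at 76.0 and 87.0 CPM, cover 4.03% of the exon bases of ERAP1, so its value too is uncertain.

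**Figure D3:**
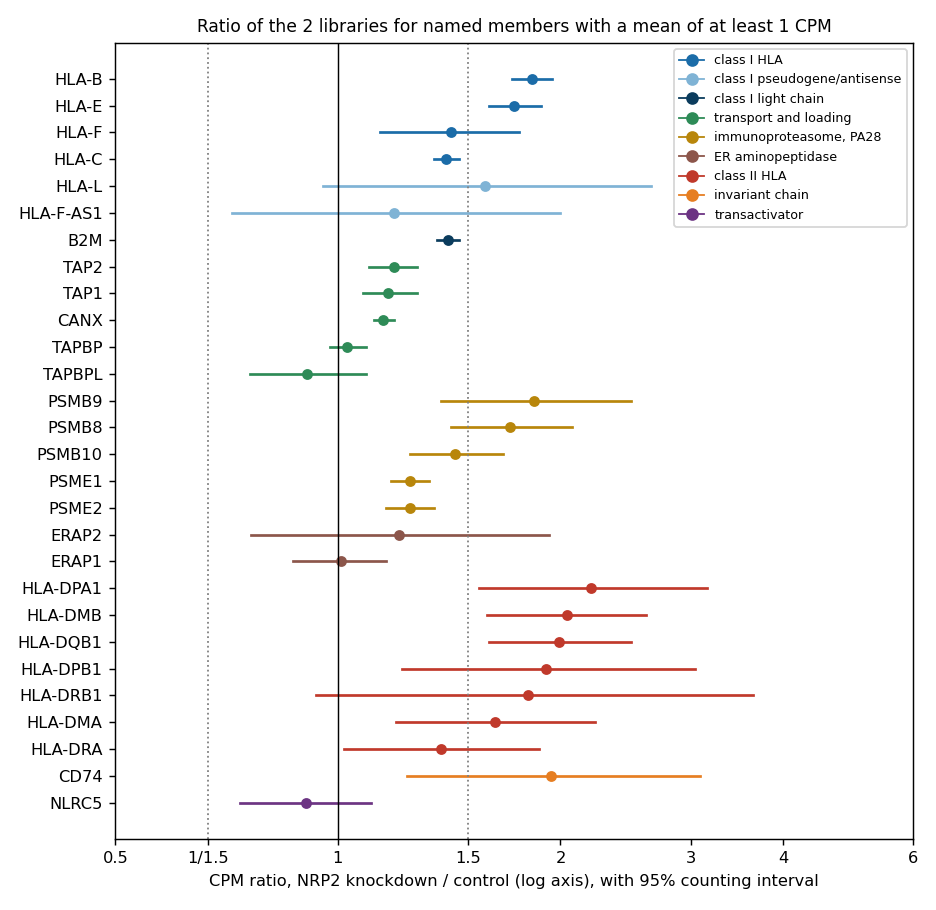
Ratio of knockdown to control CPM (horizontal, log axis) of the compared members named in the text, as points with exact 95% counting intervals, 1 library per group; dotted lines mark 1.5-fold in each direction. HLA-DPA1 has the highest ratio, 2.20, and NLRC5 the lowest, 0.905, and TAPBPL, TAPBP, ERAP1 and NLRC5 lie around 1.

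**Figure D4:**
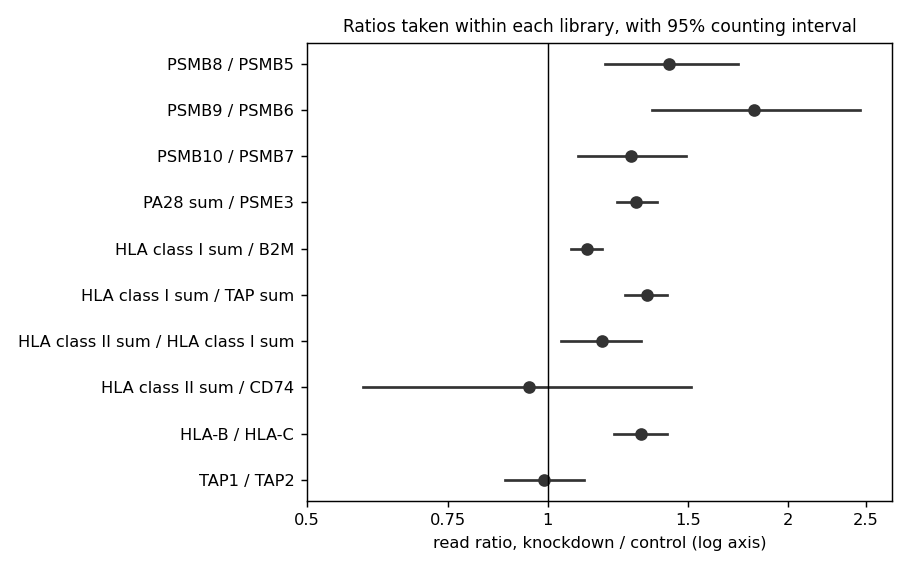
Ratio of reads between genes or sums, taken within each library and divided between the libraries (knockdown over control, log axis), as points with exact conditional 95% counting intervals. The immunosubunits against their counterparts lie at 1.27 to 1.81, and TAP1 against TAP2 lies at 0.989.

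Levels between genes were compared per kilobase of the longest coding transcript in GENCODE release 29. B2M was the most abundant member, at 145 CPM per kilobase in the control and 203 in the knockdown library, followed by HLA-C at 119 and 167. HLA-B stood at 45.0 and 82.4 CPM per kilobase and kept position 6. The highest class II genes were HLA-DQB1, at 3.51 and 6.99 CPM per kilobase, and HLA-DMB, at 3.45 and 7.02. Without replicates, neighbours in this order cannot be told apart beyond counting error.

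Genes around the pathway were read on the log2(CPM + 1) scale from lists of non-members, and their counts stand against the 5.78% of all compared genes past 1.5-fold higher and the 3.57% lower, so that a count of 0 in such short lists is near the background. None of the 4 other loading chaperones passed 1.5-fold, but all 4 had a higher CPM in the knockdown library, where 54.1% of compared genes lay above 0. CALR, calreticulin, was at 1388 and 1813 CPM, 1.31 (1.29 to 1.33). PDIA3, the ERp57 gene, was at 741 and 1003 CPM, 1.35 (1.33 to 1.38). Of 20 regulators of interferon and MHC signalling, 0 passed 1.5-fold on that scale. IRF1, an activator of class I genes, was at 8.13 and 8.54 CPM. IRF2 was at 7.16 and 10.5 CPM, JAK1 at 5.65 and 3.73 CPM, IFNGR2 at 32.0 and 23.4 CPM and SOCS3 at 1.70 and 1.08 CPM, with NFKB1 at 55.4 and 42.3 CPM, the largest log2 differences of that list. By plain ratio JAK1 was 1.52-fold lower (1.13 to 2.04) and SOCS3 1.57-fold lower (0.902 to 2.78).

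Of 11 symbols for lysosomal class II processing, 8 were found, 7 were compared and 0 passed 1.5-fold. The lysosomal cathepsin CTSD was at 231 and 304 CPM and CTSB at 119 and 154 CPM, LGMN, an asparaginyl protease, was at 92.1 and 107 CPM, and IFI30, a thiol reductase of antigen processing, was at 36.6 and 27.6 CPM. CTSS, the cathepsin that cuts the invariant chain in antigen-presenting cells, had 14 and 9 reads. Of 15 class I-like and immune ligand genes, 11 were compared and 1 passed 1.5-fold: RAET1G, a ligand of the killer cell receptor NKG2D, at 1.46 and 2.97 CPM. FCGRT, the neonatal Fc receptor, was at 20.1 and 26.7 CPM, ULBP2, another NKG2D ligand, at 9.64 and 12.2 CPM and CD274, which encodes PD-L1, at 2.48 and 1.75 CPM.

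Class II genes are typical of leukocytes, so markers of other cells were read beside them. Of 20 leukocyte markers, 18 had at least 1 read, 3 were compared and the sum was 21.7 CPM (control) and 30.3 CPM (knockdown). Most of it came from CD83, at 11.8 and 17.6 CPM, and CD68, at 6.67 and 9.95 CPM, while FLT3, the other compared marker, was at 1.56 and 0.849 CPM. In all 8 of the 20 had a higher CPM in the knockdown library, 10 a lower one and 2 had 0 reads in both. The pan-leukocyte gene PTPRC had 5 reads (control) and 1 read (knockdown), CD14 had 1 in each, MS4A1 had 8 and 9, LYZ had 6 and 17, and CD3D and CD2 had 0 in both. PTPRC and the T cell genes were thus at or near 0 in both libraries, the markers did not share 1 direction, and the part of such cells in the class II result was not tested. Of 11 endothelial and fibroblast markers, 3 were compared, none past 1.5-fold, with a sum of 47.0 and 37.3 CPM, most of it COL1A1, and TEK, EMCN and DCN had 0 reads in both.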

How the data were processed

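RNA sequencing of 2 libraries, 1 for each group, was analysed from 1 deposited table per library. Each deposited value is a signal for 1 gene symbol, TMM-normalised CPM as the names of the authors' deposited tables state. The submitters' processing notes name edgeR, RSEM 1.2.15, Bowtie2 2.1.0 and bcl2fastq 2.17 with hg19. No source used here gives their roles, the annotation or the strand. The deposited columns sum to 1024943 and 1084413 rather than 1000000. All values (100% in each library, tolerance 0.01 read) are whole multiples of 1 read, so whole reads were recovered. A further 28 symbols turned into calendar dates (0.181% and 0.184% of reads) were left out of the compared genes.

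Changes, sums, within-library read ratios and exact intervals were computed with Python 3.11.15 and scipy 1.17.1, with a pseudocount of 1 CPM, a mean of at least 1 CPM and a 1.5-fold threshold, after a test on simulated data. Every compared member but 1 is named. Genes of other lists are named past 1.5-fold, and otherwise at most 4 with the largest change. The listed subunits, IRF1, NFKB1, CTSS and single markers were named after their values were seen. Some measured genes, 1 member among them, are not reported here. The members and lists were chosen with earlier results of these data known. Nothing says that either library came from more than 1 culture. Alternatives were other pseudocounts, filters, scalings, thresholds and a binomial test on recovered reads.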

Additional observations from a re-analysis of the deposited data

How the results depend on the processing

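No member passed 1.5-fold downward under any of the 11 alternatives tried. The count of 10 of 29 members at least 1.5-fold higher became 12 with a pseudocount of 0.25 CPM, which gained HLA-DMA and HLA-DRB1. The share of all compared genes that much higher also rose with that pseudocount. The count became 5 of 29 with a pseudocount of 5 CPM, where 2.47% of compared genes were that much higher. This setting lost CD74, HLA-DPA1, HLA-DPB1, PSMB8 and PSMB9. With a mean of at least 5 CPM, which compares fewer members, the count was 6 of 19, against 4.15% of compared genes. At 2-fold it was 0 of 29, against 1.46% of compared genes. It became 4 of 16 when all HLA genes counted as 1 sum, against 5.78% of compared genes. It became 20 of 29 by an exact binomial test on the recovered reads at a Benjamini-Hochberg adjusted p under 0.05. That test compares these 2 libraries, not the conditions, and called 6954 of the 13316 compared genes, 52.2%. HLA-DPB1 also dropped out with equal library totals, HLA-DPB1 and CD74 under quantile normalization, and CD74 after removal of the dependence on transcript length and GC content, an alternative chosen after seeing the data. The median change of 0.45 was 0.30 with a pseudocount of 5 CPM and 0.32 with no filter on low values. The class I sum changed by 0.57 with equal library totals and 0.59 under quantile normalization, and the HLA sum by 0.58 and 0.60, against 0.65 and 0.66. The class II sum stayed within its counting interval under all its alternatives, and its excess over class I stayed above 0. No paired analysis was possible because each group has 1 library, and leaving out a library was not possible for the same reason. Depth limits HLA-DO, HLA-DQA1, HLA-DRB1 and CIITA, which had few reads. Exon overlap also concerns members that stood higher. In GENCODE, same strand exons of another gene cover 31.4% of the HLA-DMB exon bases, 15.5% of HLA-DMA, 30.7% of PSMB10 and 33.4% of TAP2. Opposite strand exons of a pseudogene cover 23.5% of those of HLA-B. These overlapping genes were not among the listed symbols, so their part in the values was not tested.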

Other observations

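The 2 chains of HLA-DQ were unequal in both libraries, with 125 and 257 reads for HLA-DQB1 against 3 and 2 for HLA-DQA1, while HLA-DPA1 had 48 and 109 reads against 31 and 61 for HLA-DPB1. In GENCODE release 29, HLA-DQA1 shares 2.07% of its 50-base stretches with HLA-DQA2 and HLA-DQB1 shares 1.51% with HLA-DQB2, and 9.93% of the HLA-DQB1 exon bases lie opposite the antisense gene HLA-DQB1-AS1, a symbol that was not found in the tables. Their reads were not assigned anew here.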
